A study of Mus musculus with 3 samples.

Results

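Deep-layer projection neurons are the excitatory neurons of cortical layers 5 and 6, and they were selected here by their transcription factors from 3 single-cell libraries of mouse dorsal cortex. A barcode was kept when it had at least 1000 detected genes and under 10% of its UMIs (unique molecular identifiers, each counting 1 captured RNA molecule) in mitochondrial genes. A kept barcode was a member when it had a UMI of at least 2 of the 4 genes Fezf2, Tle4, Foxp2 and Bcl11b and a UMI of Neurod2 or Neurod6. Members also had 0 UMIs of Eomes, Neurod1, Dlx2 and Gad2, which mark neuronal precursors and interneurons, and under 2 UMIs of Reln, which marks Cajal-Retzius cells. The rule took 1322 of 36295 kept barcodes: 794 of 13199 in the Emx1-Cre library, 270 of 13135 in the hGFAP-Cre library and 258 of 9961 in the control library. They are called marker-selected cells below, because the control library's cells went against the cell type name.

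The study deleted Map2k1 and Map2k2, which encode MEK1 and MEK2, the kinases that phosphorylate ERK. Emx1-Cre; Map2k1/2 double conditional mutants carried Cre under Emx1, a gene active in early progenitors of the dorsal telencephalon. hGFAP-Cre; Map2k1/2 double conditional mutants carried Cre under the human GFAP promoter, which is active in radial glia later in gestation. Controls carried floxed Map2k1 and Map2k2 according to the series' design text, while their genotype label reads WT. All 3 genotypes received FlashTag, a dye that labels cells dividing at the ventricle, in the lateral ventricle at embryonic day 18. Dorsal cortices were collected on postnatal day 2, dissociated with papain and sorted for tdTomato before 10x Genomics 3′ libraries were made. The sources used here do not give the allele that carries tdTomato, the number of pups in a library, or any use of the dye in sorting. A share of a library is a share of sorted cells, so what the sort took in and what the cortex held cannot be told apart.

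Deep-layer neurons are born before upper-layer neurons. Fezf2 directs them towards subcerebral targets and acts with Bcl11b (CTIP2), which is needed for the growth of corticospinal axons. Layer 6 corticothalamic neurons are known for the corepressor Tle4 and for Tbr1, Sox5 and Foxp2. In the mouse, ERK signalling is known to be needed by layer 5 corticospinal neurons for axon growth and survival after birth.

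Each genotype was 1 library, so no test between genotypes was possible and no p-value is given. Intervals are exact 95% intervals, Clopper-Pearson for shares of cells and Poisson for counts, and they cover counting error only. Expression is given as CPM, a gene's UMIs over the cells of a set in 1 library, divided by all UMIs of those cells and scaled to 1000000. The libraries held between 84016524 and 89917586 UMIs, and the lowest UMI count of a deposited barcode was 2644 in the Emx1-Cre library, 3065 in the hGFAP-Cre library and 500 in the control library. Xist was at 0.155 CPM in the Emx1-Cre and 0.823 CPM in the hGFAP-Cre library, against 1470 CPM in the control library, and the Y-linked gene Ddx3y was at 37.5, 45.9 and 0 CPM. Sex and genotype therefore cannot be told apart in any comparison below. Libraries shared 144 barcode sequences, carried by 7 Emx1-Cre, 1 hGFAP-Cre and 0 control members. Scrublet predicted 11.6%, 17.4% and 16.3% of the Emx1-Cre, hGFAP-Cre and control members to be doublets, and these were kept, since the rule does not remove them.

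The targeted genes gave no check of the labels. Map2k1 (chromosome 9, 64185770 to 64253631, minus strand, GRCm38) was at 13.9 CPM in Emx1-Cre, 17.2 CPM in hGFAP-Cre and 20.3 CPM in control marker-selected cells. Map2k2 (chromosome 10, 81105915 to 81133975, plus strand) was at 215, 213 and 202 CPM. Counts at the 3′ end do not show whether floxed exons had been removed, and the position of those exons is not given in the sources used here.

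RNA of astroglia and radial glia was found in more marker-selected cells of the control library than of either mutant library. Fabp7, the brain fatty acid-binding protein of radial glia, had a UMI in 42.7% of Emx1-Cre, 57.0% of hGFAP-Cre and 89.1% of control members. Slc1a3, a glial glutamate transporter, had one in 18.4%, 28.1% and 63.2% of them, and Pax6, a transcription factor of radial glia, in 10.8%, 24.8% and 54.3%. Bcl11b, a gene of the rule, had one in 86.9% of Emx1-Cre, 72.6% of hGFAP-Cre and 39.1% of control members. The rule's genes Tle4, at 54.4%, 74.1% and 85.3%, and Foxp2, at 17.0%, 22.6% and 25.6%, ran the other way. Fezf2 was at 72.7%, 57.8% and 69.0%. The rule itself shapes these 4 shares, so nothing about cell type is read from them. Median depth was 8104.5, 7475 and 9426.5 UMIs per member, so the control members were the deepest.

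The contrast was clear in sums over lists. Over 33 markers of astroglia, oligodendrocyte precursors, microglia, endothelial, mural and ependymal cells (Fabp7 and Apoe left out), the median member held 0 UMIs in Emx1-Cre and hGFAP-Cre cells, against 29.5 in control cells. The neuronal genes Stmn2, Stmn3, Tubb3, Gap43, Mapt and Syt1 together made up a median of 1.36% of the UMIs of an Emx1-Cre member, 0.541% of an hGFAP-Cre member and 0.237% of a control member. In pooled counts, Fabp7 was at 1460 CPM in Emx1-Cre, 2242 CPM in hGFAP-Cre and 7765 CPM in control members. Mki67, a proliferation marker, had a UMI in 3.15%, 3.70% and 14.0% of them. The name deep-layer projection neurons was therefore not borne out for most control members.

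Marker-selected cells with under 2 UMIs over those 33 markers are called glia-poor below, a division chosen after seeing the data. There were 622 glia-poor cells in Emx1-Cre, 190 in hGFAP-Cre and 80 in control. The other 172 Emx1-Cre, 80 hGFAP-Cre and 178 control members, or 21.7%, 29.6% and 69.0%, held 2 or more. Glia-poor cells had a UMI of Slc1a3 in 8.20%, 6.84% and 10.0%, against 10.1%, 15.9% and 21.6% of microglial barcodes, which should lack it. The division itself holds down the glial markers it counts, so these Slc1a3 shares cannot show whether the cells were free of glia. Fabp7 was found in 37.1%, 46.3% and 75.0% of glia-poor cells and in 44.4%, 39.1% and 69.4% of microglial barcodes at own depth. Thinned to 3000 UMIs, it was in 17.8% of Emx1-Cre (14.7 to 21.2%), 32.6% of hGFAP-Cre (26.0 to 39.8%) and 44.6% of control glia-poor cells (33.0 to 56.6%), against 29.3%, 24.2% (19.4 to 29.6%) and 29.7% (24.2 to 35.6%) of microglial barcodes. Glia-poor hGFAP-Cre and control cells were thus above the microglial share, with overlapping intervals. Median depth was 7253, 4986.5 and 6163 UMIs in glia-poor cells and 5918, 7644 and 11431.5 UMIs in microglial barcodes.

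Glia-poor cells still differed in markers of other cells. The summed level of the 8 astroglial genes was 101.4 CPM in Emx1-Cre, 148 CPM in hGFAP-Cre and 296 CPM in control, with 0, 2 and 3 of the 8 at 0 UMIs. Cajal-Retzius genes summed to 69.9, 503 and 119 CPM, hippocampal genes to 522, 650.2 and 983 CPM, and interneuron genes to 3.57, 33.7 and 44.1 CPM. Of 5 oligodendrocyte precursor genes 3, 5 and 4 were at 0 UMIs. Predicted doublets were 30, 1 and 1 of the glia-poor cells. The part of these in the gene values below was not tested.

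**Figure D1:**
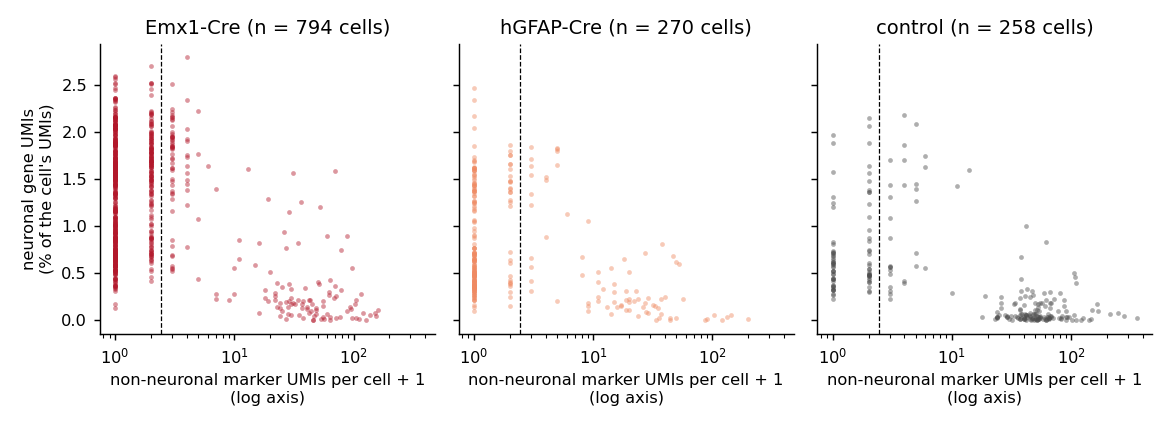
Each point is 1 marker-selected cell. The x axis gives its UMIs summed over the 33 non-neuronal markers plus 1 (log axis), the y axis the percentage of its UMIs in the 6 neuronal genes, and the dashed line the limit of the glia-poor cells. Cells right of the line make up 21.7% of Emx1-Cre, 29.6% of hGFAP-Cre and 69.0% of control members.

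Marker-selected cells made up 6.02% of the Emx1-Cre library (5.62 to 6.43%), 2.06% of the hGFAP-Cre library (1.82 to 2.31%) and 2.59% of the control library (2.29 to 2.92%). The Emx1-Cre share was 2.32 times the control share (2.02 to 2.68) and the hGFAP-Cre share 0.794 times (0.667 to 0.945). Among glia-poor cells the order of hGFAP-Cre and control turned round. Glia-poor cells were 4.71% (4.36 to 5.09%) of Emx1-Cre, 1.45% (1.25 to 1.67%) of hGFAP-Cre and 0.803% (0.637 to 0.999%) of control barcodes, so 5.87 times (4.64 to 7.50) and 1.80 times (1.38 to 2.37) the control share. Glial marker content differed between the libraries beside these shares, and its part in them was not tested.

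The same order held when the glia-poor cells were counted among glia-poor projection neurons, defined by Neurod2 or Neurod6 with the same exclusions. They were 16.9% of 3681 such neurons in Emx1-Cre, 8.13% of 2338 in hGFAP-Cre and 3.75% of 2136 in control. The share of cells with 2 or more non-neuronal UMIs had another order, highest in control and lowest in hGFAP-Cre: 1.30% of Emx1-Cre, 0.609% of hGFAP-Cre and 1.79% of control barcodes. Counting every member, the hGFAP-Cre share was lower than the control share, but among projection neurons it was 9.52% against 8.17%, a ratio of 1.17 whose interval of 0.979 to 1.39 takes in equality.

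**Figure D2:**
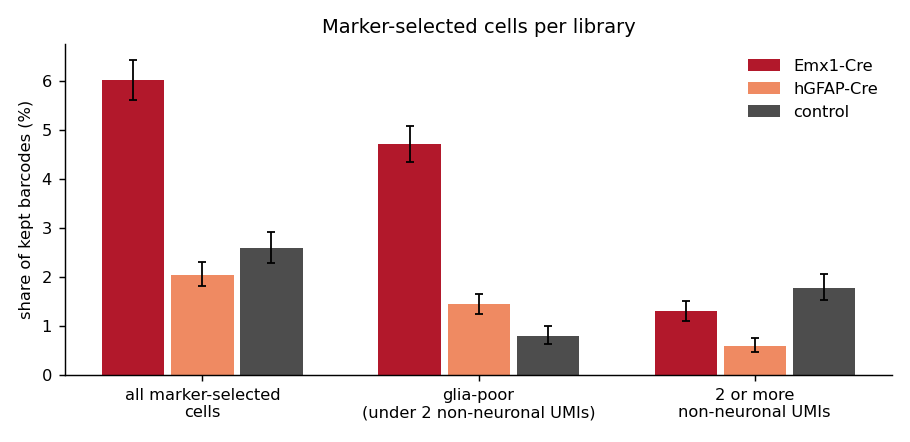
Bars give the share of kept barcodes (%) that were marker-selected cells, glia-poor marker-selected cells, or marker-selected cells with 2 or more non-neuronal UMIs, in the Emx1-Cre, hGFAP-Cre and control libraries. Lines are exact 95% intervals, counting error only. The hGFAP-Cre bar is below the control bar for all members (2.06% against 2.59%) and above it for glia-poor cells (1.45% against 0.803%).

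The members came close to the limits of the rule in many cases. Exactly 2 of the 4 markers were detected in 579 Emx1-Cre, 208 hGFAP-Cre and 220 control members. Just outside the rule, with 1 marker, were 1349, 770 and 891 cells, with median depths of 3419, 4178.5 and 6345 UMIs. All 4 markers were found in 31, 11 and 11 members. Of the members, 120, 21 and 8 had the 1 UMI of Reln that the rule allows, while 32, 6 and 1 cells that met the rest of the rule stayed out with 2.

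Which markers made a cell a member differed between the libraries. These values describe the rule's own genes and are no finding. Fezf2 with Bcl11b alone, the pair of subcerebral neurons, selected 265 of the glia-poor Emx1-Cre cells (42.6%), 33 hGFAP-Cre cells (17.4%) and 6 control cells (7.50%). Tle4 with Bcl11b alone selected 117 (18.8%), 68 (35.8%) and 36 (45.0%). Fezf2 with Tle4 alone selected 43, 22 and 15 glia-poor cells, and in control these were 15 of the 112 members with that pair. In pooled glia-poor cells Bcl11b was at 497 CPM in Emx1-Cre, 389 CPM in hGFAP-Cre and 298 CPM in control, Fezf2 at 277, 225 and 225 CPM, Tle4 at 121, 186 and 204 CPM, and Foxp2 at 22.0, 33.7 and 44.1 CPM. Tle4 also had a UMI in 19.2%, 16.6% and 22.4% of microglial barcodes thinned to 3000 UMIs, so a single UMI of it did not mark neurons alone.

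Across genes, a mutant was set against the control by the log2 ratio of CPM with 5 CPM added to each, over genes at 20 CPM or more in either, and a gene was called from a 1.5-fold difference on. Over all marker-selected cells 854 of 7100 genes were higher and 2075 lower in Emx1-Cre (12% and 29.2%), and 738 of 7130 higher and 1330 lower in hGFAP-Cre (10.4% and 18.7%). In glia-poor cells 608 of 6467 genes were higher and 1719 lower in Emx1-Cre (9.40% and 26.6%), and 570 of 6540 higher and 1236 lower in hGFAP-Cre (8.72% and 18.9%). The median log2 ratio of all genes in glia-poor cells was -0.23 in Emx1-Cre and -0.12 in hGFAP-Cre, so these are the levels that lists below are read against. Scaling by trimmed mean of M-values moved CPM ratios up by 0.31 in Emx1-Cre and 0.18 in hGFAP-Cre, and gave 1372 higher and 863 lower, and 983 higher and 834 lower genes. Higher genes were then 61.4% and 54.1% of those called, against 26.1% and 31.6% with the main scaling. For all members the same scaling gave 1695 higher and 1216 lower genes in Emx1-Cre (58.2% higher, against 29.2%) and 1004 and 1083 in hGFAP-Cre (48.1%, against 35.7%).

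Over all members, markers of other cell types differed between the libraries. All 8 astroglial markers were lower in both mutants, beside 29.2% of all genes lower in Emx1-Cre and 18.7% in hGFAP-Cre. All 5 ependymal markers were higher, beside 12% and 10.4% of genes higher. Rsph1, a protein of motile cilia, was at 258 CPM in Emx1-Cre, 154 CPM in hGFAP-Cre and 3.75 CPM in control members. The ciliary genes Meig1 (306, 162 and 3.44 CPM) and Dynlrb2 (250, 174 and 4.37 CPM) were among the largest differences. Among the lowest against control was Mfge8, which astrocytes express, at 11.4, 61.9 and 578 CPM. In Emx1-Cre these included Gas1 and Hopx, Hopx being a marker of radial glia, at 7.39 and 12.9 CPM against 302 and 319 CPM. In glia-poor cells the ependymal genes summed to 6.72 CPM in Emx1-Cre, 0 CPM in hGFAP-Cre, where 0 UMIs allow up to 2.15 CPM, and 1.38 CPM in control. Gene groups are therefore given for glia-poor cells, with values over all members where these differ.

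S100a10 and Cntn6 of the layer 5 list and Crym of the layer 6 list were higher in glia-poor cells of both mutants. S100a10 (chromosome 3, 93555080 to 93564643, plus strand), an annexin-binding protein and a marker of corticospinal neurons, was at 835 CPM (809 to 861) in Emx1-Cre, 348 CPM (317 to 380) in hGFAP-Cre and 146 CPM (120 to 177) in control glia-poor cells. The intervals are apart, in the order Emx1-Cre, hGFAP-Cre, control, with log2 ratios over control of 2.47 and 1.22. Cells with a UMI of S100a10 were 58.3%, 24.2% and 9.46% after thinning to 3000 UMIs, which left out 61, 0 and 6 cells, and 59.3%, 34.2% and 13.8% at their own depth. Microglial barcodes gave 14.4%, 7.96% and 4.18% when thinned.

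Cntn6 (chromosome 6, 104492790 to 104863406, plus strand), a contactin of the immunoglobulin superfamily, was at 85.9 CPM (77.8 to 94.6) in Emx1-Cre and 51.6 CPM (40.4 to 65.0) in hGFAP-Cre glia-poor cells, against 4.14 CPM (0.853 to 12.1) in control, where it rested on 3 UMIs. Its log2 ratios were 3.31 and 2.63. Thinned, 103 of 561 Emx1-Cre cells (18.4%), 14 of 190 hGFAP-Cre cells (7.37%) and 0 of 74 control cells had a UMI of it, and 0 of 74 allows up to 4.05% of cells with a UMI at this depth (3 counts; the exact upper bound is 4.86%). No thinned microglial barcode of any of the 3 libraries had one. At own depth the shares were 35.9%, 19.5% and 1.25%.

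Crym (chromosome 7, 120186380 to 120202111, minus strand), a thyroid hormone-binding protein, was at 368 CPM (351 to 385) in Emx1-Cre, 249 CPM (224 to 277) in hGFAP-Cre and 113 CPM (89.9 to 140) in control glia-poor cells. Its log2 ratios were 1.66 and 1.11, and 44.2%, 20.5% and 6.76% of thinned cells had a UMI of it, against 0%, 0.346% and 0.380% of microglial barcodes. Over the alternative settings, S100a10 stayed between 1.41 and 4.95 in Emx1-Cre and 0.55 and 3.85 in hGFAP-Cre, Cntn6 from 2.13 and 1.15 up, and Crym between 0.72 and 2.94 and between 0.18 and 2.34. Over all members the same order held, with S100a10 at 729, 243 and 56.9 CPM, Cntn6 at 72.7, 35.6 and 5.62 CPM, and Crym at 315, 172 and 54.4 CPM.

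The other layer 5 genes did not move together. Ldb2, a LIM domain-binding cofactor, was at 157 CPM (146 to 169) in Emx1-Cre, 96.8 CPM (81.1 to 115) in hGFAP-Cre and 74.4 CPM (55.9 to 97.1) in control glia-poor cells, so the hGFAP-Cre and control intervals overlap. Pcp4, a calmodulin-binding peptide, was at 454, 396 and 365 CPM. Crim1 and Igfbp4 were lower in Emx1-Cre, at 16.8 and 5.25 CPM against 34.5 and 23.4 CPM in control. Of 10 layer 5 genes in the files 7 passed the level filter, and of these 3 were called higher and 3 lower in Emx1-Cre (median log2 ratio 0.31, all genes -0.23), and 2 higher and 1 lower in hGFAP-Cre (0.12, all genes -0.12). Of all genes in glia-poor cells 9.40% were higher and 26.6% lower in Emx1-Cre, and 8.72% and 18.9% in hGFAP-Cre. Over all members the medians were 1.44 and 0.60. Npr3, Rbp4 and Parm1 did not reach the filter.

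Etv1, an ETS transcription factor of layer 5 that is also a transcriptional target of ERK, was at 47.2 CPM (41.3 to 53.8) in Emx1-Cre, 64.5 CPM (51.9 to 79.3) in hGFAP-Cre and 145 CPM (118 to 175) in control glia-poor cells. Yet 12.3%, 9.47% and 12.2% of thinned cells and 19.1%, 21.6% and 18.8% at own depth had a UMI of it, so no order is read from the CPM. The 10 deepest glia-poor cells held 4.46% of the UMIs in Emx1-Cre, 14.7% in hGFAP-Cre and 39.2% in control, and pooled control values lean on those cells.

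Layer 6 genes were split. Sox5, a transcription factor that times the production of corticofugal neurons, was at 164 CPM (153 to 176) in Emx1-Cre, 100.4 CPM (84.4 to 118) in hGFAP-Cre and 74.4 CPM (55.9 to 97.1) in control glia-poor cells. Tbr1, the T-box factor of layer 6, was at 33.4 CPM (28.4 to 39.0), 74.6 CPM (60.9 to 90.3) and 82.7 CPM (63.1 to 106), past the fold in Emx1-Cre and not in hGFAP-Cre. Its log2 ratio in Emx1-Cre was -1.19, and it was 0.55 among cells with at least 3 of the 4 markers. Wnt7b, a Wnt ligand, was at 8.40, 29.4 and 63.4 CPM, and thinned 2.67%, 7.89% and 18.9% of cells had a UMI of it, against 0.599%, 1.38% and 1.90% of microglial barcodes. Syt6, a synaptotagmin, was at 8.19, 13.6 and 40.0 CPM. At own depth 4.66%, 6.84% and 7.50% of cells had a UMI of it, with overlapping intervals, and in control these were 6 of 80 cells.

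Rprm, a cell cycle arrest protein expressed in layer 6, was at 736 CPM in Emx1-Cre, 383 CPM in hGFAP-Cre and 808 CPM in control glia-poor cells, but 63.5%, 28.9% and 25.7% of thinned cells had a UMI of it. Share and CPM disagree, so no order is read between Emx1-Cre and control. The same holds for Hs3st4, a heparan sulfate sulfotransferase, at 28.8, 39.4 and 59.3 CPM with 7.31%, 6.84% and 2.70% of thinned cells. Of 10 layer 6 genes 8 passed the level filter. Of these 2 were higher and 4 lower in Emx1-Cre (median -0.53, all genes -0.23), and 1 higher and 3 lower in hGFAP-Cre (median -0.34, all genes -0.12). Of all genes in glia-poor cells 9.40% were higher and 26.6% lower in Emx1-Cre, and 8.72% and 18.9% in hGFAP-Cre. The layer 6 median in Emx1-Cre lay between -1.19 and 0.23 over the alternatives and was 0.18 with trimmed-mean scaling. Over all members the medians were 0.39 and 0.25. Of the 9 subplate genes none passed the filter in Emx1-Cre against control, and 1, the nuclear receptor Nr4a2, did in hGFAP-Cre, at 21.5 CPM against 4.14 CPM in control.

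**Figure D3:**
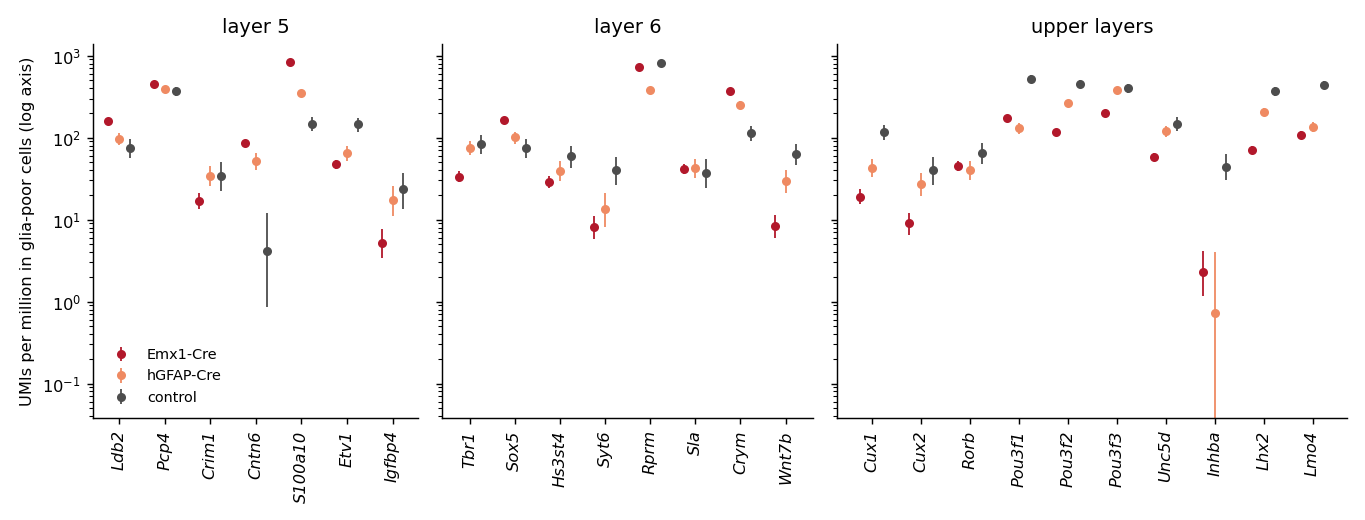
CPM (log axis) of the layer 5, layer 6 and upper-layer genes that passed the level filter, in glia-poor marker-selected cells of the Emx1-Cre, hGFAP-Cre and control libraries. Lines are exact Poisson 95% intervals, counting error only. S100a10, Crym and Cntn6 are highest in Emx1-Cre and lowest in control, and upper-layer genes such as Lhx2, at 71.6, 206 and 367 CPM, run the other way.

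Most upper-layer genes that could be measured were lower in glia-poor cells of both mutants. Of 12 such genes 10 passed the level filter. Of these 9 were lower and 0 higher in Emx1-Cre, beside 26.6% of all genes lower, and 7 were lower and 0 higher in hGFAP-Cre, beside 18.9%. The list medians were -1.80 and -0.80. They stayed between -2.24 and -0.81 in Emx1-Cre and between -1.54 and -0.32 in hGFAP-Cre over the alternatives, and were -1.36 and -0.75 over all members.

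Lhx2, a LIM homeodomain factor, was at 71.6 CPM (64.2 to 79.6) in Emx1-Cre, 206 CPM (183 to 232) in hGFAP-Cre and 367 CPM (324 to 414) in control glia-poor cells. Thinned, 22.6%, 45.3% and 71.6% of cells had a UMI of it, against 5.39%, 8.30% and 8.37% of microglial barcodes. Cux1, a homeodomain factor, was at 19.1, 43.0 and 116 CPM, with 6.42%, 13.2% and 31.1% of thinned cells, but 10.8%, 20.1% and 28.5% of thinned microglial barcodes had a UMI of it too, so its shares give no order.

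Lmo4, a LIM-only protein, was at 109, 135 and 437 CPM, and Pou3f1, a POU-domain factor, at 175, 130 and 522 CPM, so both were low in the Emx1-Cre and hGFAP-Cre cells alike. Pou3f2, a paralogue of Pou3f1, was graded instead, at 116 CPM (107 to 126), 262 CPM (236 to 290) and 455 CPM (407 to 507). Pou3f3 was at 201 CPM in Emx1-Cre, while hGFAP-Cre at 378 CPM (346 to 411) and control at 398 CPM (354 to 447) overlapped. Its log2 ratio in Emx1-Cre turned to 0.25 among cells with at least 3 of the 4 markers. Inhba, a subunit of activin, had 11, 1 and 32 UMIs, or 2.31, 0.717 and 44.1 CPM. Rorb, a nuclear receptor of layer 4, was at 45.1, 40.1 and 64.8 CPM and missed the fold in Emx1-Cre.

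Other glia-poor projection neurons, those with at most 1 of the 4 markers, showed where the marker-selected cells stood apart from the library around them. There were 3059 in Emx1-Cre, 2148 in hGFAP-Cre and 2056 in control. S100a10 was at 184 CPM in Emx1-Cre, 83.9 CPM in hGFAP-Cre and 7.31 CPM in control other neurons, with log2 ratios over control of 3.94 and 2.85, so S100a10 was higher in both sets. Crym was at 53.3, 9.49 and 0.488 CPM there. Cntn6 was at 5.26, 1.74 and 3.74 CPM, under the level filter in every library, so it could not be called there. Ldb2 was at 38.4, 35.2 and 44.7 CPM and Sox5 at 20.4, 16.8 and 20.9 CPM. Neither was called higher in the other neurons of a mutant, beside 5.34% of genes called higher there in Emx1-Cre and 5.76% in hGFAP-Cre. The difference between the sets was not tested.

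Most of the upper-layer genes measured in the other neurons were lower there too. There 9 of 11 were lower in Emx1-Cre (median -0.92), beside 20.5% of all genes lower, and 6 of 11 in hGFAP-Cre (median -0.83), beside 14.3%. Lhx2 was at 250, 374 and 460 CPM in the other neurons of Emx1-Cre, hGFAP-Cre and control. Its log2 ratio of glia-poor marker-selected cells over the other neurons of the same library was -1.73, -0.84 and -0.32. For Lmo4 this ratio was -1.08, -0.89 and -0.06, and for Cux2 -1.74, -0.79 and -1.25. In Lhx2 and Lmo4 the control cells thus stood nearer to the neurons around them than the cells of either mutant did. In Cux2 the control cells stood nearer than the Emx1-Cre cells but not than the hGFAP-Cre cells. The part of cell identity in this was not tested. The other neurons had medians of 3246, 3884 and 5448.5 UMIs per cell. Shallow cells can miss markers of the rule, and the part of depth in which neurons became members was not tested.

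**Figure D4:**
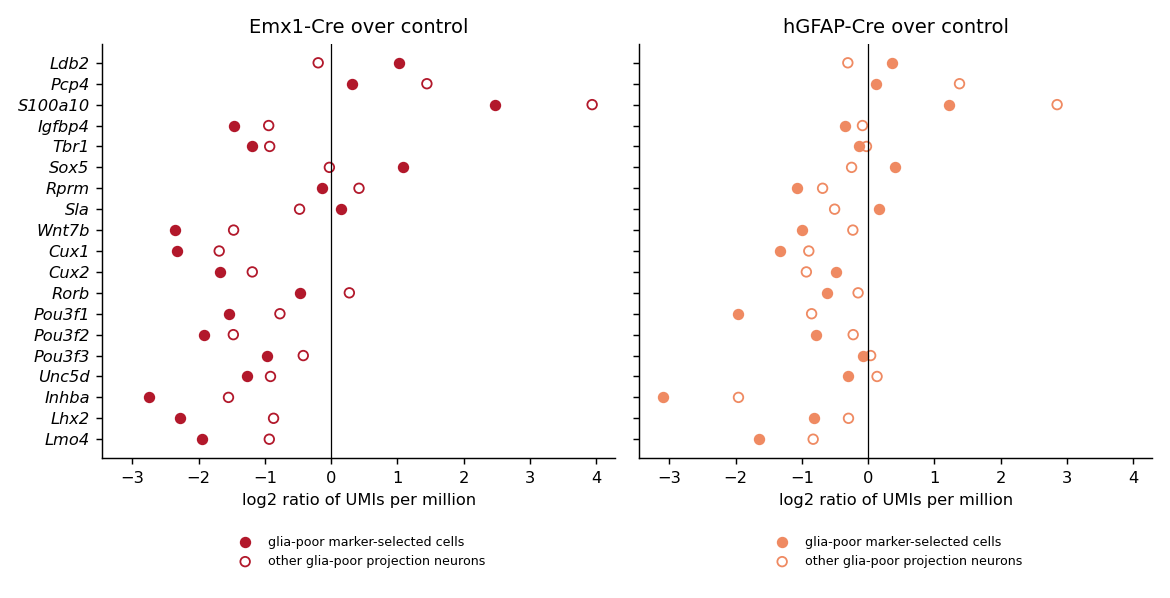
Log2 ratio of CPM over control in Emx1-Cre (left) and hGFAP-Cre (right), for layer genes measured in both sets of cells. Filled points are glia-poor marker-selected cells and open points the other glia-poor projection neurons. S100a10 is to the right of 0 in both sets, Sox5 and Ldb2 in the marker-selected cells, and most upper-layer genes to the left of 0 in both.

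Genes that respond to ERK were called lower in 6 of 8 cases in Emx1-Cre and 4 of 8 in hGFAP-Cre, and higher in 0, among the 8 of 18 listed genes that passed the filter in glia-poor cells. The medians were -1.06 and -0.62, and 26.6% and 18.9% of all genes were lower. Etv1, described above with no order read, is counted among them. Epha4, an Eph receptor, was at 104 CPM (94.8 to 113) in Emx1-Cre, 126 CPM (108 to 146) in hGFAP-Cre and 234 CPM (200.4 to 272) in control. The feedback inhibitor Spry2 was at 8.19 CPM (5.82 to 11.2), 14.3 CPM (8.76 to 22.1) and 27.6 CPM (16.8 to 42.6), and its control interval overlaps that of hGFAP-Cre. The ERK phosphatase Dusp4 was at 4.83, 5.02 and 23.4 CPM. In the other neurons of Emx1-Cre, hGFAP-Cre and control Dusp4 was at 4.18, 11.4 and 14.4 CPM and Spry2 at 11.1, 23.6 and 30.7 CPM. Epha4 was at 231, 164 and 242 CPM there, so in Emx1-Cre it was near control.

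Low counts limit this list in 80 control cells. Spred2, another inhibitor, was at 11.5, 18.6 and 27.6 CPM, from 20 UMIs in control, and at 22.4, 23.0 and 38.6 CPM in the other neurons. Etv4 had 0, 0 and 6 UMIs and Etv5 3, 3 and 11, and neither reached the filter. Dusp6, which dephosphorylates ERK, was at 25.4, 17.2 and 26.2 CPM and Myc at 29.4, 24.4 and 22.1 CPM, neither past the fold. Over all members 10 of 12 genes were lower in Emx1-Cre and 10 of 11 in hGFAP-Cre, beside 29.2% and 18.7% of all genes lower. Among them were Etv5 at 3.10, 2.51 and 55.6 CPM, Spry2 at 15.8, 24.3 and 152 CPM and Ccnd1 at 13.4, 7.95 and 105 CPM. Those genes are also expressed by glia, whose markers were highest in the control members (astroglial sum 1998, 3719 and 12469 CPM), and the part of glia in them was not tested.

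Few components of the ERK cascade passed the fold. Of 15 measured in glia-poor cells, 0 were higher and 2 lower in Emx1-Cre (median -0.05), and 0 were higher and 3 lower in hGFAP-Cre (median -0.06), and these medians were 0.24 and 0.10 with trimmed-mean scaling. Map2k1 was at 12.4, 10.0 and 20.7 CPM in Emx1-Cre, hGFAP-Cre and control, from 59, 14 and 15 UMIs, with overlapping intervals. Map2k2 was at 210, 198 and 196 CPM. Rps6ka3, the kinase RSK2 downstream of ERK, was at 17.8, 13.6 and 28.9 CPM, with overlapping intervals as well.

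Immediate early genes, which neurons induce with activity and cells with handling, differed in sign between glia-poor cells and all members. In glia-poor cells 7 of 12 were higher and 1 lower in Emx1-Cre (median 0.69), beside 9.40% of all genes higher, and 3 of 10 were higher and 0 lower in hGFAP-Cre (median 0.37), beside 8.72%. Over all members 4 of 14 were higher and 7 lower in Emx1-Cre (median -0.79), and 1 of 13 higher and 8 lower in hGFAP-Cre (median -1.14). Of all genes over all members 12% were higher and 29.2% lower in Emx1-Cre, and 10.4% and 18.7% in hGFAP-Cre. Junb was at 186 CPM (174 to 199), 79.6 CPM (65.5 to 95.8) and 23.4 CPM (13.7 to 37.5) in glia-poor Emx1-Cre, hGFAP-Cre and control cells. Npas4, a factor induced by neuronal activity, had 150, 14 and 2 UMIs, or 31.5, 10.0 and 2.76 CPM. When every cell was thinned to 3000 UMIs before the rule was applied, the medians became -0.14 in Emx1-Cre and -0.38 in hGFAP-Cre, and the log2 ratio of Junb in hGFAP-Cre became -0.0081.

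Receptors for growth factors were mixed. Ntrk2, which encodes the BDNF receptor TrkB, was at 177 CPM (165 to 189) in Emx1-Cre, 115 CPM (98.3 to 135) in hGFAP-Cre and 67.5 CPM in control glia-poor cells, with the 3 intervals apart. In the other neurons it was at 49.9, 37.2 and 61.3 CPM. Fgfr1, an FGF receptor, was at 18.3, 32.3 and 48.2 CPM. Kit, the receptor for stem cell factor, was at 26.7 and 30.1 CPM in Emx1-Cre and hGFAP-Cre, from 8 UMIs in control. Of the list 2 of 5 were higher and 2 lower in Emx1-Cre (median -0.04, and 0.27 with trimmed-mean scaling), and 3 of 6 higher and 0 lower in hGFAP-Cre, where 8.72% of all genes were higher.

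Axon guidance genes were lower in more cases than higher, as all genes were. In glia-poor cells 11 of 27 were lower and 2 higher in Emx1-Cre (median -0.37), beside 26.6% lower, 9.40% higher and a median of -0.23 for all genes. In hGFAP-Cre 12 of 26 were lower and 0 higher (median -0.51), beside 18.9%, 8.72% and -0.12. Plxna4, a semaphorin receptor, was at 27.3 CPM (22.8 to 32.4) in Emx1-Cre, 79.6 CPM (65.5 to 95.8) in hGFAP-Cre and 175 CPM (146 to 208) in control. Plxna2, of the same family, was at 79.4, 145 and 193 CPM, and the adhesion molecule Cntn2 (TAG-1) at 57.1, 80.3 and 145 CPM. Sema5a, a semaphorin, was at 14.9, 34.4 and 60.7 CPM, and Efnb1, an ephrin, at 21.4, 25.8 and 62.0 CPM. Over all members 6 of 22 were lower in Emx1-Cre and 4 of 22 in hGFAP-Cre, with medians of -0.03 and -0.18, which is near the 29.2% and 18.7% of all genes.

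Axon growth genes had few calls, while synaptic genes were lower more often than higher. Of 19 axon growth genes 3 were higher and 2 lower in glia-poor Emx1-Cre cells (median -0.01, and 0.31 with trimmed-mean scaling), and 1 higher and 4 lower in hGFAP-Cre (median -0.24). Stmn3, a stathmin that destabilises microtubules, was at 4430, 3029 and 1908 CPM, and Map1b, a microtubule-associated protein, at 1225, 831 and 1978 CPM. Of 13 synaptic and maturation genes 1 was higher and 6 lower in Emx1-Cre (median -0.52), and of 14 in hGFAP-Cre 1 was higher and 7 lower (median -0.60), beside 26.6% and 18.9% of all genes lower. The neurofilament genes Nefl, at 66.1, 28.7 and 156 CPM, and Nefm, at 28.1, 16.5 and 97.9 CPM, led this list, but with the non-neuronal limit counting Fabp7 and Apoe as well, their log2 ratios in Emx1-Cre turned to 1.04 and 0.35, and that of Nefl in hGFAP-Cre to 0.30. Slc17a6, a vesicular glutamate transporter, was at 15.5, 50.9 and 62.0 CPM, past the fold in Emx1-Cre and not in hGFAP-Cre.

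**Figure D5:**
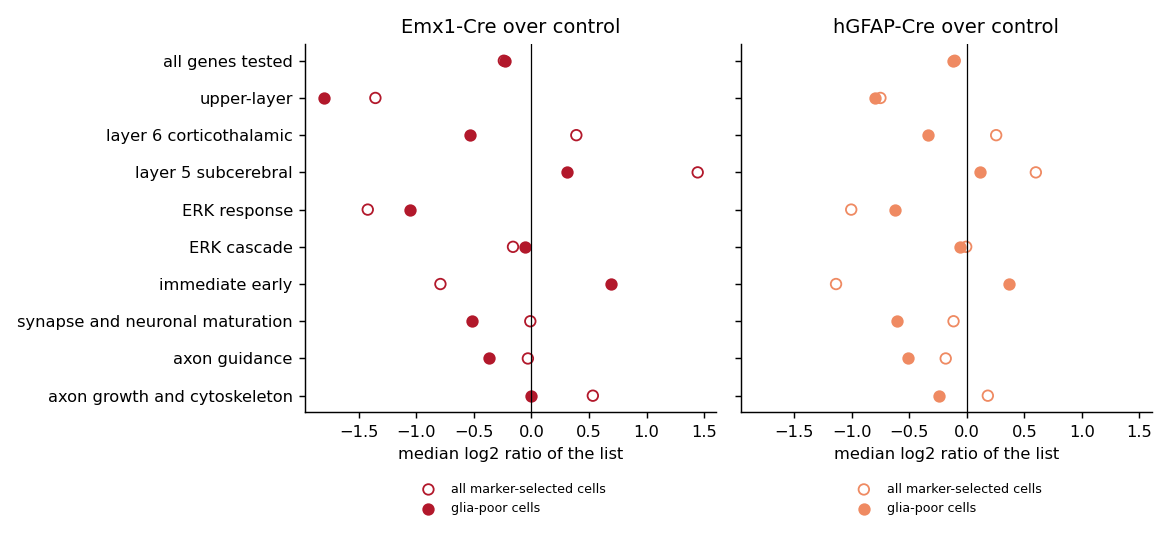
Median log2 ratio of CPM over control of each gene list in Emx1-Cre (left) and hGFAP-Cre (right), for all marker-selected cells (open) and glia-poor cells (filled). The upper-layer medians lie at -1.80 and -0.80 in glia-poor cells, while those of the layer 6 and immediate early lists have opposite signs in the 2 sets of cells.

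Adhesion and channel genes had members that differed in both directions. Among cadherins, Pcdh10 was at 128 CPM (118 to 138) in Emx1-Cre, 84.6 CPM in hGFAP-Cre and 31.7 CPM (20.1 to 47.6) in control, whereas Pcdh17 was at 48.1, 50.2 and 135 CPM. Thinned to 3000 UMIs before the rule, the log2 ratio of Pcdh10 in hGFAP-Cre turned to -0.043. Cdh4, or R-cadherin, was at 10.3 CPM in Emx1-Cre, against 62.4 CPM in hGFAP-Cre and 81.3 CPM in control. The cadherin counts were 2 higher and 4 lower of 11 in Emx1-Cre, and 3 higher and 2 lower of 11 in hGFAP-Cre. Grm3, a metabotropic glutamate receptor, was at 80.8, 80.3 and 27.6 CPM. Gabra5, a GABA-A receptor subunit, was at 19.7, 14.3 and 73.1 CPM, and the AMPA receptor subunit Gria3 at 20.6, 19.4 and 56.5 CPM. Of 14 glutamate and GABA receptor genes 4 were higher and 5 lower in Emx1-Cre, and 1 higher and 6 lower in hGFAP-Cre. Of 12 ion channel genes 2 were higher and 1 lower in Emx1-Cre, and 0 higher and 1 lower in hGFAP-Cre. All genes were higher in 9.40% and lower in 26.6% of cases in Emx1-Cre, and in 8.72% and 18.9% in hGFAP-Cre, which also holds for the lists that follow.

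Remaining lists held few calls or unstable ones. Of 9 p53 and apoptosis genes 4 were higher and 3 lower in Emx1-Cre, and 3 higher and 1 lower in hGFAP-Cre. Ccng1, a p53 target, had 104, 25 and 2 UMIs, or 21.8, 17.9 and 2.76 CPM. Of cholesterol synthesis genes 1 of 13 was higher in Emx1-Cre and 2 of 12 were lower in hGFAP-Cre, and of 10 glycolysis genes 1 and 4 were lower. Of 5 genes of the integrated stress response and axon injury 1 was lower in each mutant, Ddit4, at 14.5, 19.4 and 35.8 CPM. The neuropeptide gene Nts (neurotensin) was at 245 CPM in Emx1-Cre, 553 CPM in hGFAP-Cre and 103 CPM in control, but with each cell weighted equally its log2 ratio in Emx1-Cre was -0.42 instead of 1.20. Npy was at 53.3, 283 and 278 CPM, but thinned to 3000 UMIs before the rule its log2 ratio in Emx1-Cre turned to 1.53 instead of -2.28, so no order is read.

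Outside the lists, several genes were far higher in the glia-poor mutant cells. Rgs4, a regulator of G-protein signalling, was at 168 CPM (156 to 180) in Emx1-Cre, 60.9 CPM (48.7 to 75.3) in hGFAP-Cre and 6.89 CPM (2.24 to 16.1) in control, and at 13.0, 3.87 and 4.88 CPM in the other neurons. Igfbp3, an IGF-binding protein, was at 88.0, 98.2 and 8.27 CPM, and Oma1, a mitochondrial protease, at 114, 76.0 and 17.9 CPM. In the other neurons of Emx1-Cre, hGFAP-Cre and control Igfbp3 was at 9.53, 6.004 and 1.30 CPM, so it was higher there too. In microglial barcodes of these libraries Igfbp3 was at 8.98, 1.62 and 0.296 CPM. Oma1 was at 7.44, 4.94 and 7.48 CPM in the other neurons, so it was not higher there. All of these levels were under the level filter. In Emx1-Cre Gda (guanine deaminase, 126 against 13.8 CPM), Stxbp6 (66.3 against 4.14 CPM), Tenm3 (a teneurin, 135 against 23.4 CPM) and Klf2 (75.8 against 8.27 CPM) were among the 8 highest, and S100a11 had 76.0 CPM against 8 UMIs in control. S100a11 was also at 97.9 against 14.5 CPM in microglial barcodes and 19.6 against 2.84 CPM in the other neurons, so it was higher in all 3 kinds of cell. Klf2 was also higher in the other neurons, at 35.8 against 7.23 CPM, as were Gda (12.4 against 2.60 CPM) and Stxbp6 (14.5 against 3.41 CPM). Tenm3 went the other way there, at 48.5 against 66.7 CPM. In hGFAP-Cre Cntn5 (95.3 against 23.4 CPM), Tshz3 (91.0 against 26.2 CPM) and Pbx4 (73.1 against 17.9 CPM) were among them, and Pbx4 was at 13.0 against 1.48 CPM in microglial barcodes. These were higher in the other neurons too, Cntn5 at 39.2 against 20.6 CPM, Tshz3 at 25.8 against 5.04 CPM and Pbx4 at 61.3 against 21.3 CPM.

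Prm1, known as a sperm chromatin protein, had the highest ratio of the genes outside the lists in hGFAP-Cre. It had 115 UMIs (82.4 CPM) in glia-poor cells and 0 in control, which allows up to 4.14 CPM. In Emx1-Cre 0 of 622 glia-poor cells had a UMI of it. Microglial barcodes of the hGFAP-Cre library held it at 73.7 CPM and those of control at 0, so it was present in both kinds of cell in the hGFAP-Cre library.

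The lowest genes against control were of several kinds. Ptn, which encodes the growth factor pleiotrophin, was at 121 CPM (111 to 131) in Emx1-Cre and 939 CPM (870 to 1012) in control glia-poor cells, and at 572 and 1824 CPM in the other neurons. Rbfox1, a splicing factor of maturing neurons, was at 54.4 against 277 CPM, Sfrp1, a secreted Wnt antagonist, at 14.7 against 92.4 CPM, and Sorl1 at 6.51 against 62.0 CPM. Hs6st2 (29.0 against 132 CPM) and Luzp2 (24.4 against 121 CPM) were lower in Emx1-Cre as well. These genes were lower in the other neurons of Emx1-Cre too. Rbfox1 was at 127 against 306 CPM there, Sfrp1 at 33.8 against 120 CPM and Sorl1 at 15.4 against 55.8 CPM. Hs6st2 was at 54.7 against 194 CPM and Luzp2 at 41.1 against 109 CPM. In hGFAP-Cre Cacng2 (17.9 against 113 CPM), an AMPA receptor auxiliary subunit, and Actn4 (13.6 against 70.3 CPM), an actinin, were among the lowest. Both were lower in the other neurons of hGFAP-Cre too, at 39.9 against 130 CPM and 16.2 against 51.1 CPM.

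Several of the lowest genes were also lower in microglia, or rested on few control cells. Cwc22 was at 12.9 CPM in hGFAP-Cre and 156 CPM in control glia-poor cells, and at 23.1 and 116 CPM in microglial barcodes. PISD was at 27.3 CPM in Emx1-Cre, 10.0 CPM in hGFAP-Cre and 125 CPM in control, and at 22.5, 11.3 and 150.3 CPM in microglia, so both genes were lower in both kinds of cell. Arhgef40 was at 13.4, 13.6 and 110 CPM, with a UMI in 7.88%, 8.42% and 8.75% of cells, so share and CPM disagree and no order is read. Nwd2, Caln1 and Tshz2 were also lower in hGFAP-Cre, at 12.2, 14.3 and 34.4 CPM against 78.6, 81.3 and 154 CPM, with a UMI in 12.5%, 17.5% and 11.2% of control cells.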

How the data were processed

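Members and gene lists were chosen with earlier results of these data known. The deposited values were raw UMI counts of 27998 genes in each barcode. Per the file headers Cell Ranger 5.0.0 wrote these counts, and the submitters' processing notes name mm10. Matrices were read with Python 3.11.15, numpy 2.4.6, scipy 1.17.1 and pandas 2.3.3. Doublets were predicted with Scrublet in scanpy 1.11.5 at an expected rate of 10% and left in. Counts were summed over members per library, scaled to CPM, and compared as log2 ratios with a pseudocount of 5 CPM over genes at 20 CPM or more in either library. Calling was tested on simulated data. Floor for a count of 0 was 3 counts. Microglial barcodes, used for free RNA, had at least 3 of the 4 genes C1qa, Cx3cr1, Csf1r and P2ry12. Shares of cells with a UMI were also taken after thinning each cell to 3000 UMIs. Coordinates are from GENCODE on GRCm38. Depth of the summed glia-poor counts was 4762910 UMIs in Emx1-Cre, 1394920 in hGFAP-Cre and 725398 in control, so 1 UMI is 0.210, 0.717 and 1.38 CPM.

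Named genes were Map2k1, Map2k2, the genes of the rule and of the layer lists; from other lists the 3 or 5 with the largest ratios in either mutant, of which a part is described; and, of genes in no list, the 8 with the highest and the 8 with the lowest ratio per mutant at 50 CPM or more with intervals apart. Genes on the sex chromosomes, of mitochondria, ribosomes or haemoglobin, and predicted genes with no name were left out there. Others named are examples, chosen after their values were seen. Some genes, and 1 alternative that rests on one of them, are not reported here and are in no list count. Alternatives changed doublets, cell filters, thinning, number of markers, scaling, pseudocount, level filter and cell weights; the glia-poor division and the pair Fezf2 and Bcl11b were added after seeing the data.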

Additional observations from a re-analysis of the deposited data

How the results depend on the processing

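No paired analysis was possible because each genotype was 1 library, which left no replicate to leave out. Precision is limited by 80 glia-poor control cells, of whose UMIs the 10 deepest cells hold 39.2%, and by the single library per genotype.

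The log2 ratio of the share of all marker-selected cells was 1.22 in Emx1-Cre; it moved to 1.45 with at least 2000 genes, 1.53 thinned to 3000 UMIs, 2.09 with 3 of 4 markers, 3.92 with under 2 non-neuronal UMIs counting Fabp7 and Apoe, 2.55 not counting them, and 3.17 with Fezf2 and Bcl11b. In hGFAP-Cre it was -0.33 and reversed to 0.20 thinned, 0.31 with 3 markers, 2.04 and 0.85 under those non-neuronal limits, 0.22 among projection neurons and 0.84 with Fezf2 and Bcl11b. For glia-poor cells the Emx1-Cre value of 2.55 moved to 1.93 thinned, 3.16 with 3 markers, 3.92 counting Fabp7 and Apoe, 2.17 among projection neurons and 4.21 with Fezf2 and Bcl11b. The hGFAP-Cre value of 0.85 moved to 1.29, 2.04 and 1.70 with 3 markers, Fabp7 and Apoe, and the pair.

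Over all members, higher and lower genes in Emx1-Cre (854 and 2075) became 1695 and 1216 with trimmed-mean and 1731 and 1193 with median-of-ratios scaling, 564 and 998 at 50 CPM, 1419 and 3373 with no filter, and 1326 lower with a pseudocount of 20 CPM. In hGFAP-Cre (738 and 1330) they became 449 and 622 at 50 CPM, 1304 and 2256 unfiltered, and 814 lower at 20 CPM. In glia-poor cells, 608 and 1719 in Emx1-Cre became 1372 and 863, and 1387 and 853, with the 2 scalings, 398 and 1006 at 20 CPM, 385 and 839 at 50 CPM, and 1084 and 2702 unfiltered; higher genes were 953 thinned and 948 counting Fabp7 and Apoe. In hGFAP-Cre, 570 and 1236 became 322 and 687 at 20 CPM, 312 and 585 at 50 CPM, and 1137 and 2194 unfiltered; higher genes were 983 and 964 with the scalings, 1028 thinned, 993 with 3 markers and 906 with the pair. Counting Fabp7 and Apoe gave 963 and 1951.

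Of 3646 gene values 3085 kept within the limits set, 539 moved and 22 reversed. Of 824 list values 710 kept, 109 moved and 5 reversed. A value kept when it shifted no further than its counting interval reaches to 1 side. It reversed only when its main value passed 1.5-fold and the sign changed, so sign changes of smaller values are not counted as reversed. One of these is the layer 6 median over all Emx1-Cre members, from 0.39 to -0.53 with under 2 non-neuronal UMIs. Over all members the immediate early list reversed to 0.78 and 0.69 in Emx1-Cre and 0.23 and 0.37 in hGFAP-Cre under the 2 non-neuronal limits, and Fezf2 to -0.37 in Emx1-Cre with 3 markers. The rest are in glia-poor cells. In Emx1-Cre, thinning reversed the immediate early list to -0.14, Cdkn1a to -0.15, Npy to 1.53 and Nts to -0.54. Counting Fabp7 and Apoe reversed Hs3st4 to 0.61, Nefl to 1.04, Nefm to 0.35 and Nts to -0.51. Asking for 3 markers reversed Pou3f3 to 0.25, Tbr1 to 0.55 and Unc5d to 1.29; the pair reversed Bcl11b to -0.14 and Nts to -0.24, and equal weights Nts to -0.42. In hGFAP-Cre, thinning reversed Cdkn1a to -0.34, Junb to -0.0081 and Pcdh10 to -0.043; 3 markers Cdkn1a to -0.41; the pair Cdkn1a to -0.59; Fabp7 and Apoe Nefl to 0.30 and Rprm to 1.92; and equal weights Rorb to 0.064. The cause was not tested.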
